A study of Mus musculus with 6 samples.

Results

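The regions described here are 2CLC-only promoter regions (GFP-positive-only in the plots), that is, promoters at which a DPPA4 peak was listed for 2-cell-like cells (2CLCs) and none overlapped it in mouse embryonic stem cells (mESCs). There were 3151 of them among 27405 promoter regions and 97623 regions in all on chromosomes 1 to 19. They were selected on the deposited peak calls. GFP-negative and GFP-positive peaks were joined into 1 region wherever they overlapped by 1 bp or more, and a region was kept when every peak in it was GFP-positive and its midpoint fell in a promoter window, which reaches 2.5 kb before and 0.5 kb past any transcript start of GENCODE vM21. The absence of a GFP-negative peak is therefore the rule itself and not a finding. The other promoter regions were 15032 common regions, with peaks of both lists, and 9222 GFP-negative-only regions.

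DPPA4 was profiled by CUT&RUN, in which an antibody directs a nuclease to the chromatin a protein occupies, to ask where its binding differs between mESCs and 2CLCs. Every group was the line EHMT2-dTAG-mcherry-mervl-gfp on a BL6/129 hybrid background, grown in FBS/LIF and exposed to dTAG for 72 h, so both cell states were depleted of the degron-tagged histone methyltransferase EHMT2 and no group with intact EHMT2 was compared. Live cells were sorted on GFP, which is under control of the promoter of the endogenous retrovirus MERVL, into GFP-negative cells (mESCs, 2 DPPA4 libraries) and GFP-positive cells (2CLCs, 2 DPPA4 libraries), and the 2 IgG libraries, from GFP-negative and bulk cells, were not used here. Each deposited list pools the 2 libraries of its group. Hence no value below has a replicate error, no difference between the lists could be tested against one, how many reads stand behind a list is unknown, and whether the labelled cell states carry their marker transcripts was not tested, since the sort alone defines them.

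DPPA4 forms a heterodimer with DPPA2 and binds GC-rich and CpG-rich DNA at promoters and at young transposable elements. Together they are required for the expression of genes of zygotic genome activation in mESC cultures, including Dux and many LINE-1 copies. 2CLCs are a rare and transient state of mESC cultures that expresses transcripts of the 2-cell embryo, many of them from tandem gene families and from promoters inside endogenous retroviruses. A promoter bound in these cells alone can thus lie in unique sequence, in a recently duplicated gene family or in an interspersed repeat, and the sequences below come from loci of low and of high copy number.

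The first set shows the summits of strong 2CLC-only promoter regions, to let their base composition be seen, each on the plus strand of mm10 (letters from the RefSeq copy of GRCm38.p6), with CpG dinucleotides in capitals. Rsph3a is at chr17:7952325-7952475, Tm9sf4 at chr2:153200711-153200861, Tmed8 at chr12:87199780-87199930, Wdr20rt at chr12:65225786-65225936, Kcnmb3 at chr3:32492033-32492183, Cox7b2 at chr5:71548220-71548370 and Olfr376 at chr11:73369327-73369477. All but Rsph3a had a summit copy number of 1, that is, the median count in the genome of the 31-base words around the summit was 1. The 300 bases around the Tmed8 and Wdr20rt summits held 33 and 21 CpG, and those around the Rsph3a and Kcnmb3 summits 9 and 6.
Rsph3a: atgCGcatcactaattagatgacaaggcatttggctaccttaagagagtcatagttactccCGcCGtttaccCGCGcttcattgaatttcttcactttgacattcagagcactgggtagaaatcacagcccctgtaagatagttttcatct
Tm9sf4: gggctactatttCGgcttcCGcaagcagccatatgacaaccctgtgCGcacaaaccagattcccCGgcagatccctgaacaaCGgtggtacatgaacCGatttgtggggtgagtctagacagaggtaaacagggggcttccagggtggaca
Tmed8: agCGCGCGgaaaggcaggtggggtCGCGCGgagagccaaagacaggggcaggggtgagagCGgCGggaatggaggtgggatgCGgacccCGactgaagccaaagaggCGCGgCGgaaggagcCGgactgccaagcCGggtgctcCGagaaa
Wdr20rt: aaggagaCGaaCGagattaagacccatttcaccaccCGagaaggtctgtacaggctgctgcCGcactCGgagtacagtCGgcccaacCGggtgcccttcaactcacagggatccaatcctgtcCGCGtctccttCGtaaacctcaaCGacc
Kcnmb3: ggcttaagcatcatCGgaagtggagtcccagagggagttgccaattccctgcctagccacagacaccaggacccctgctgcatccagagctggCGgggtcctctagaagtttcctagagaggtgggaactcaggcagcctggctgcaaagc
Cox7b2: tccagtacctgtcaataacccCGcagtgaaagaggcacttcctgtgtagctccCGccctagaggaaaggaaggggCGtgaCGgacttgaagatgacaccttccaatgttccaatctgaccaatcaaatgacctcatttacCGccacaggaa
Olfr376: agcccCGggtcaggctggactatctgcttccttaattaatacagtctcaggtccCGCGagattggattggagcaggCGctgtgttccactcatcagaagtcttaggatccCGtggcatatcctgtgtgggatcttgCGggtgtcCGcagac

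The second set shows sequence that several 2CLC-only promoter regions shared, as 71 bases around a shared stretch of 31 bases in capitals, taken from a strong region of each group. Senp7 (chr16:56045811-56045881), Gm43382 (chr5:61340816-61340886) and Ctf2 (chr7:127732926-127732996) stand for groups whose shared stretch occurs from 469 to 706 times in the genome, and Gm8332 (chr12:88249853-88249923), Zfp993 (chr4:146610992-146611062), Obox4-ps20 (chr7:15227492-15227562), Usp17ld (chr7:103254839-103254909) and Gm2099 (chr12:87988435-87988505) for groups whose stretch occurs 25 times or fewer.
Senp7: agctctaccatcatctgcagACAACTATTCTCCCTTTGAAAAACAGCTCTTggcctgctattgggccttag
Gm43382: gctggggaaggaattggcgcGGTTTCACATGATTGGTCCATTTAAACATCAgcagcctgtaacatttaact
Ctf2: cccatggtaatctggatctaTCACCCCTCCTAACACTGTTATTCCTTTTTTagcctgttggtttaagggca
Gm8332: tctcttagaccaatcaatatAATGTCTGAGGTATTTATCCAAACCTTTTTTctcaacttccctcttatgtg
Zfp993: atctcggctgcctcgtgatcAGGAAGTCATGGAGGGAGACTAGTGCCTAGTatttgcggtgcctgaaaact
Gm2099: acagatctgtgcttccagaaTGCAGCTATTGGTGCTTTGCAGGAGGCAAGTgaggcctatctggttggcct
Obox4-ps20: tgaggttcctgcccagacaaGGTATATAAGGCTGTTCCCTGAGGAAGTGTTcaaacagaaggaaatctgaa
Usp17ld: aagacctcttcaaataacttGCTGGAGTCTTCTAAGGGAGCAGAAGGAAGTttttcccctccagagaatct

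Most 2CLC-only promoter regions were weak peaks. Each was a single peak, with a median −log10 q of 2.03 (quartiles 1.60 and 2.77) and a median fold enrichment of 3.502 (quartiles 3.21 and 3.94). A peak's −log10 q is its significance after the authors' correction for multiple testing, and its fold enrichment is the ratio of fragments at its summit to the background that the peak caller estimated, and both are set by the list that also chose the regions. Common promoter regions had a median −log10 q of 14.7 and GFP-negative-only regions of 2.701. A −log10 q of at least 5 was reached by 279 of the 3151 (8.85%), of at least 10 by 50 and of at least 20 by 10, against 84.04% and 24.2% at 5 or more in the common and GFP-negative-only classes. Their median width was 559 bp (quartiles 344.5 and 852.5 bp), close to the 532 bp of the GFP-negative-only class and below the 1500 bp of the common class.

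At the limits of the rule, the weakest region had a −log10 q of 1.301. The closest lay 1 bp from a GFP-negative peak, edge to edge, and 5 lay within 10 bp, whereas the smallest overlap in a common promoter region was 5 bp and 3 common regions overlapped by 10 bp or less. There were 104 midpoints in the last 100 bp inside the upstream limit and 124 in the last 100 bp inside the downstream limit, and 156 GFP-positive-only regions missed a limit by up to 100 bp.

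The strongest 2CLC-only promoter region, lay in an intron of Rsph3a, a gene of the radial spoke of motile cilia (chromosome 17, 7952180 to 7952437). It spanned 258 bp, 241 bp upstream of a transcript start, with a −log10 q of 85.9 and a fold enrichment of 18.97. Its copy number, the median genomic count of the 31-base words around its summit, was 2, so the sequence is not unique. The next regions by −log10 q belonged to clusters. Sfi1, which encodes a centrin-binding protein of the centrosome, had 3 of the 10 strongest (−log10 q 47.8, 35.7 and 20.7) and Gm11399 beside it had another (23.3). On chromosome 1, C130026I21Rik reached 34.7 and Gm16094, next to Sp110, reached 34.5. The other 3 of the 10 had a copy number of 1 and high enrichment. Tm9sf4, a transmembrane protein of the endosomal pathway, had 22.2 with a fold enrichment of 11.5 over 6120 bp, Tmed8 had 21.4 with 10.7 in a coding exon 313 bp downstream of a start, and Gm12114 had 20.7 with 11.6 over 12074 bp, the widest region of all.

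High significance did not always mean high enrichment. The plot of −log10 q against fold enrichment shows regions of 2 loci off the main trend. From 3.1 to 3.2 Mb on chromosome 11, around Sfi1, there were 20 2CLC-only promoter regions with fold enrichments of 1.64 to 3.88 (median 2.297) and a median −log10 q of 8.84, beside 3 common and 0 GFP-negative-only regions. On chromosome 1, in the megabase that holds Sp110, 39 regions had fold enrichments of 1.82 to 6.25 (median 2.49). These loci held 9 and 6 of the 50 regions that reached a −log10 q of 10. The other 35 had a median fold enrichment of 7.45 and none under 4.65. Local read depth was not used here, and its part in these values was not tested.

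**Figure D1:**
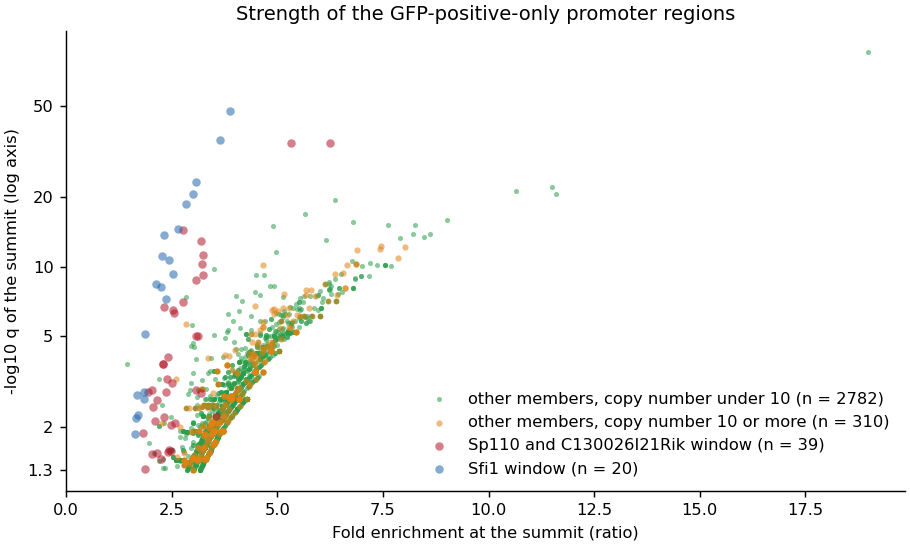
Fold enrichment at the summit (horizontal axis, a ratio) against the −log10 q of the summit (vertical axis, logarithmic) for each of the 3151 2CLC-only promoter regions, coloured by copy number and by the 2 loci named in the text. The 20 regions of the Sfi1 window lie between 1.64 and 3.88 in fold enrichment yet reach a −log10 q of 47.8.

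A set of 485 2CLC-only promoter regions had a copy number of 1, no GFP-negative peak within 5 kb and a nearest start that belongs to a protein-coding gene, and 40 of them had a −log10 q of at least 5. The strongest of these were at Sfi1 (35.7) and Tm9sf4 (22.2), described above, where the nearest transcript is annotated as subject to nonsense-mediated decay and as a retained intron, respectively. For 227 of the 485 the nearest transcript is itself annotated as protein-coding, and 20 of these 227 had a −log10 q of at least 5. The strongest of the 227 was Wdr20rt, a retrogene of the deubiquitinase cofactor Wdr20, with a −log10 q of 15.2 and a fold enrichment of 7.62 in its coding exon, 18 bp downstream of the start and 18496 bp from the nearest GFP-negative peak. Olfr376, an olfactory receptor gene that is also on the 2-cell list below, had 13.4 and 8.47 at 1884 bp upstream, and its region was 63.9% soft-masked (the lower-case bases that mark repeats in the reference). Kcnmb3, a regulatory subunit of the BK potassium channel, had 10.6 and 6.77 at 106 bp downstream. Cox7b2, a testis form of a cytochrome c oxidase subunit, had 10.2 and 7.55 at 152 bp upstream. They were followed by BC048507 (8.398), Dcun1d5 (8.09), Gm37013 (7.71), Zswim2 (7.42), Gm5788 (7.33) and Slfn2 (7.09). Of these 10, 7 were in exons or introns or at a UTR or within 1 kb upstream of a start, and Zswim2, Gm5788 and Olfr376 lay further upstream.

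Position relative to the start differed between the 2CLC-only regions and both other classes, though the distributions overlapped. Their midpoints lay a median of 861 bp upstream of the nearest transcript start, against 332.5 bp for GFP-negative-only and 9 bp for common regions. Over 1 kb upstream there were 45.99% of the 2CLC-only regions (Wilson 95% interval 44.2 to 47.7), 34.3% of the GFP-negative-only regions (33.3 to 35.2) and 11.5% of the common regions (10.96 to 11.98). Within 500 bp of the start on either side, 16.8% lay upstream and 23.4% downstream, where the common class had 34.8% and 47.5%. All intervals given here are for counting error alone, with neighbours taken as independent. The classes also differed in strength, and among regions with a −log10 q under 5 the median distances were 887.5 bp upstream for 2CLC-only, 457.5 bp for GFP-negative-only and 146 bp for common regions. Among regions with a −log10 q of 1.3 to 2 they were 890, 659 and 366 bp, in the same order.

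**Figure D2:**
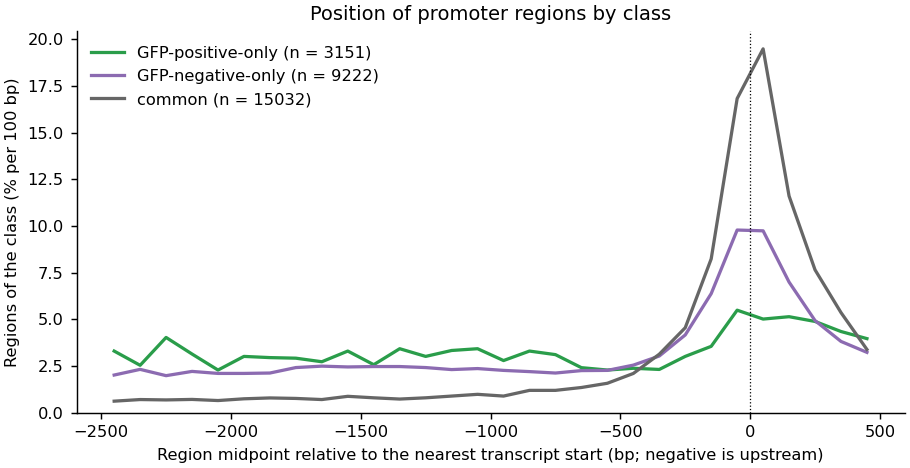
Share of the regions of each promoter class (vertical axis, percent per 100 bp) by the distance of the region midpoint from the nearest transcript start (horizontal axis, bp, negative is upstream). Common regions (n = 15032) peak at the start with 19.5% in the first 100 bp downstream, whereas the 3151 2CLC-only regions spread over the whole window and reach at most 5.49% per 100 bp.

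A UTR held the midpoint of 4.09% of the 2CLC-only regions (3.46 to 4.84), against 10.4% of GFP-negative-only (9.75 to 10.99) and 23.1% of common regions (22.5 to 23.8). Introns held 44.2%, coding exons 8.89%, exons of non-coding transcripts 11.2% and sequence outside genes 31.6%. The nearest start belonged to a protein-coding gene for 2050 regions (65.1%), to a pseudogene for 495 (15.7%, 14.5 to 17.02), to a lincRNA for 201 and to a microRNA for 77. Pseudogenes were the nearest gene for 6.62% (6.14 to 7.15) of GFP-negative-only and 3.91% (3.61 to 4.23) of common promoter regions.

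In genes, 2969 of 51229 genes on chromosomes 1 to 19 (5.8%) had a 2CLC-only region in their promoter window, and 395 of these had more than 1. The share was 8.81% of protein-coding genes (1832 of 20807) and 3.74% of all other genes. For 1544 of the 2969 (52.0%) the same window also held a common region, and for 631 (21.2%) a GFP-negative-only region. The window held no other class in 1246 genes (41.97%), 402 of them protein-coding. At the genes with another class, DPPA4 was thus also listed in mESCs in the same window, at another position.

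The distance to DPPA4 binding in mESCs varied widely. The nearest GFP-negative peak lay a median of 2684 bp away (quartiles 750.5 and 11260 bp). It lay within 100 bp of 46 regions, within 500 bp of 568 and within 1 kb of 989 (31.4%, 29.8 to 33.03), and farther than 50 kb from 176 (5.59%). The 843 regions with no GFP-negative peak within 10 kb had a median −log10 q of 2.24, and 17.1% of them were in multi-copy sequence. The 989 within 1 kb had 1.93 and 5.56%. A region close to a GFP-negative peak can be the flank of a shared site, which these lists cannot tell apart from separate binding.

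Repeat content was higher in the 2CLC-only regions, and higher in their stronger bands of −log10 q. Soft-masked bases made up 32.2% of their sequence, 13.2% of GFP-negative-only and 12.9% of common promoter regions. Multi-copy sequence (a copy number from 10 upward) held 311 of the 3151 summits (9.87%, 8.88 to 10.96), 147 of 9222 GFP-negative-only summits (1.59%, 1.36 to 1.87) and 337 of 15032 common summits (2.24%, 2.02 to 2.49). From the weakest band (−log10 q of 1.3 to 2) to the strongest (10 or more), soft-masked bases of the 2CLC-only regions went from 25.7% through 31.6%, 33.8% and 41.8% to 54.4%. The GFP-negative-only class stayed between 12.6% and 14% over the same bands, and the common class between 12.4% and 16.9%. These are shares of summed bases, in which wide regions weigh more. By region, the 2CLC-only medians over the bands were 17.3%, 22.8%, 23.5%, 28.4% and 27.5%, with no rise into the strongest. Multi-copy summits went from 7.005% (5.84 to 8.38) in the weakest to 18.3% (13.9 to 23.9) in the fourth band, and 9 of 50 in the strongest. With both lists cut to their 10000 strongest peaks before merging, which changes the regions that count as 2CLC-only, the 1192 regions so defined had 15.9% soft-masked bases and 5.29% multi-copy summits. At multi-copy sites the authors placed each read at random among equal matches, so such a peak shows that some copy was occupied and not which.

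**Figure D3:**
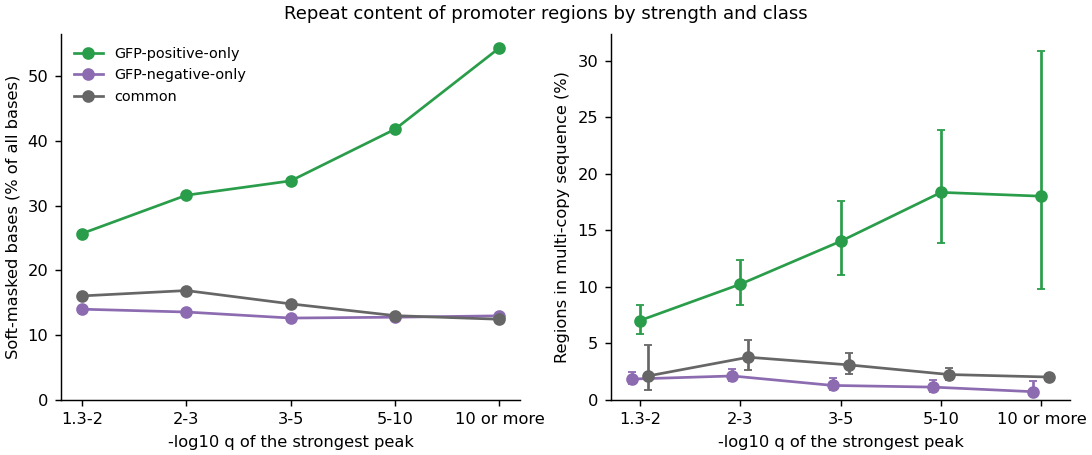
Soft-masked bases (left, percent of all bases of the regions) and regions in multi-copy sequence (right, percent with Wilson 95% intervals) by −log10 q band for the 3 promoter classes. The 2CLC-only class lies above both others in every band and reaches 54.4% soft-masked bases in the strongest band, where the GFP-negative-only class has 12.97%. By region, the medians in that band are 27.5% and 10.5%.

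Most 2CLC-only promoter regions nevertheless had a copy number of 1 at the summit. This was found for 2413 (76.6%), and 411 had no soft-masked base. A copy number of 1 is a median over the 200 bp around the summit, so such a region can still hold repeated sequence. The copy-number-1 regions had a median −log10 q of 1.93, and 24.0% of their bases were soft-masked, still above the 13.2% and 12.9% of the whole other classes. At the other end, 173 had a copy number of 100 or more and 184 were at least 90% soft-masked (5.84%, against 0.781% and 0.679%).

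Base composition differed as well. In the 300 bases around the summit, GC content had a median of 50% in 2CLC-only, 54.0% in GFP-negative-only and 62.0% in common regions, and CpG counts had medians of 5, 6 and 20. All RefSeq promoters (31396 windows of 300 bases on the same chromosomes) had medians of 53.0% and 7. Among regions with a −log10 q under 5 the GC medians were 50%, 53.7% and 56.3%, so the order was kept at lower strength. The GC box GGGCGG, bound by Sp and KLF factors, was found on either strand in 12.9% of 2CLC-only windows, 26.2% of GFP-negative-only windows, 60.9% of common windows and 35.98% of RefSeq promoters. When only bases outside soft-masked sequence were searched, it was in 9.55% of 2CLC-only, 23.5% of GFP-negative-only and 57.9% of common windows. The next motifs are given in the order 2CLC-only, GFP-negative-only, common and RefSeq. The ETS-type motif CCGGAAG was in 2.73%, 4.32%, 14.2% and 9.004%, and the NRF1 core GCATGCGC in 0.920%, 1.19%, 4.05% and 2.698%. By contrast the TATA box TATAAA was in 11.1%, 7.68%, 3.81% and 13.6%. GATAA was in 25.5%, 19.8%, 12.9% and 25.3%, CCAAT in 34.4%, 29.6%, 38.0% and 37.3%, and the CRE TGACGTCA in 0.476%, 0.727%, 2.15% and 1.83%. Outside soft-masked sequence TATAAA was in 6.38% of 2CLC-only (5.58 to 7.29), 5.80% of GFP-negative-only (5.34 to 6.30) and 3.04% of common windows. In the same order CCAAT was there in 24.1%, 26.1% and 35.8%, and GATAA in 19.6%, 17.6% and 11.7%. Each motif was searched on both strands, and a match is only a match of letters.

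Motifs of factors active at the 2-cell stage were searched as well. TGCACAC, of ZSCAN4, was in 6.82% of 2CLC-only windows (5.99 to 7.76), 6.62% of GFP-negative-only windows (6.14 to 7.15), 3.94% of common windows and 4.402% of RefSeq promoters. Outside soft-masked sequence it was in 3.59% (2.99 to 4.29) of 2CLC-only, 5.17% (4.74 to 5.64) of GFP-negative-only and 3.31% of common windows. Per 100 kb of such sequence it was found 18.4, 21.4 and 12.75 times, in the same order. GGATTA, the core bound by OTX and OBOX homeodomain proteins, was found in 18.7% of 2CLC-only windows, 7.95% of GFP-negative-only windows, 5.44% of common windows and 7.07% of RefSeq promoters. Outside soft-masked sequence the shares were 5.21% (4.48 to 6.04), 5.22% (4.78 to 5.69) and 3.998%. The 2CLC-only windows hold fewer such bases, and per 100 kb of them GGATTA was found 26.5 times in 2CLC-only, 20.9 times in GFP-negative-only and 15.1 times in common windows. This order was not particular to GGATTA. By the same measure TATAAA was found 34.5, 24.5 and 11.96 times and GATAA 108.9, 78.4 and 47.2 times. The GC box went the other way, with 55.1, 130.5 and 428.4. GATTCAATC, a core of the sequence bound by DUX, the transcription factor that induces the 2-cell programme, was in 16 2CLC-only windows (0.508%), 0.0217% of GFP-negative-only, 0.0865% of common windows and 0.153% of RefSeq promoters. Of these 16, 12 held it outside soft-masked sequence (0.381%, 0.218 to 0.664, against 0.0217%, 0.00595 to 0.0790, in GFP-negative-only windows), and 11 of the 13 common windows did. The strongest were at Adamtsl1 (−log10 q 7.02, match 16 bp from the summit), Mir7-2 (6.54, 21 bp) and Med27 (3.82, 42 bp, copy number 271.5). The match, in these 3 its reverse complement, is in capitals in the 61 bases below, read on the plus strand at chr4:86087856-86087916, chr7:78885601-78885661 and chr2:29344984-29345044.
Adamtsl1: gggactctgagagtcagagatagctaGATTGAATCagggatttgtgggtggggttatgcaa
Mir7-2: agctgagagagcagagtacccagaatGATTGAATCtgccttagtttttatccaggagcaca
Med27: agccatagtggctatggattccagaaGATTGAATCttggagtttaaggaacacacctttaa

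A part of the 2CLC-only regions shared sequence with one another. Some 889 of the 3151 held a 31-base word, low-complexity words left out, that another also held within 150 bases of its summit, and 37 groups of 5 or more regions shared a word (465 regions). Such counts were not made within the other classes, so whether this sharing is particular to 2CLC-only regions was not tested. A group of 47 and another of 33 regions lay on 15 chromosomes each, with shared words that occur 16053 and 29465 times in the genome. Their median −log10 q was 2.23 and 1.93, their median copy number 1, and the words were also in 21 and 18 GFP-negative-only and in 33 and 13 common promoter windows. Slc38a6, a solute carrier, led the group of 47 (10.3), with Pla2g15, Clip1 and Gm15697. Trim33 led the group of 33 (6.49).

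Other groups had a high copy number at the summit. The word printed for Senp7 was shared by 20 regions on 12 chromosomes, occurred 678 times in the genome, and was in 0 GFP-negative-only and 1 common promoter window. These regions had a median −log10 q of 7.10, a median width of 3817.5 bp and a median soft-masked share of 100%, and their summits had a median copy number of 631. Senp7, a SUMO protease gene, led with 12.3, followed by Gm13335 (12.2), Gm44736 (11.8) and Rbm25 (10.3). At these 4 genes the midpoint lay 1989 to 2482 bp upstream of the start. The word printed for Ctf2 was shared by 8 regions and occurred 706 times. The word of Gm43382 was shared by 14 regions and occurred 469 times. The words were chosen because 2CLC-only regions share them, so their rarity in the other classes is a description. The class of these repeats was not analysed here.

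Other groups lay on single chromosomes, at copies of a gene. On chromosome 12, Gm8332, Gm18626, Gm5039 and others shared a word that occurs 18 times in the genome (8 regions, median −log10 q 3.88), and Gm2016, Gm48389 and others another that occurs 11 times (6 regions, 4.21). On chromosome 4, 6 regions at Zfp993, Zfp981, Zfp980, Zfp534, Zfp982 and Zfp986, KRAB-type zinc finger genes, shared a word found 18 times in the genome and in 5 common promoter windows (median −log10 q 4.33). On chromosome 7, 5 Obox4 pseudogenes (17 times, 3.95) and the Usp17l genes (5 regions, 6 times, 3.34), which encode deubiquitinases, each formed a group. By contrast a group of 6 on as many chromosomes held Gm2099, H3f3c and H3f3a-ps2, the last 2 of them named after histone H3.3 (25 times in the genome, 3.09).

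The 2CLC-only regions were spread over many windows, with a minority of them in dense ones. Of 2091 windows of 1 Mb with a promoter region, 999 held a 2CLC-only region, with a median of 2, and 56 held 10 or more (824 regions, 26.2%). In 55 windows, with 369 of the regions, they outnumbered both other classes together. The C130026I21Rik and Sp110 window of chromosome 1 led with 39 of 44 promoter regions, 36 of them of copy number 2 or more. The window of Tmed8 and Gm2016 on chromosome 12 had 32 of 44, and the next megabase 25 of 29. The Sfi1 window had 28 of 55, 27 of them of copy number 1. The Obox4 pseudogene window had 24 of 32, the window beginning at 11000001 on chromosome 7 had 21 of 21, and the Tdpoz window of chromosome 3 had 20 of 29. In the windows that followed, such as those of Platr30 and Pias3 (19 of 63) and of Ctf2 and Mvp (19 of 87), the 2CLC-only regions were a minority among many promoters.

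**Figure D4:**
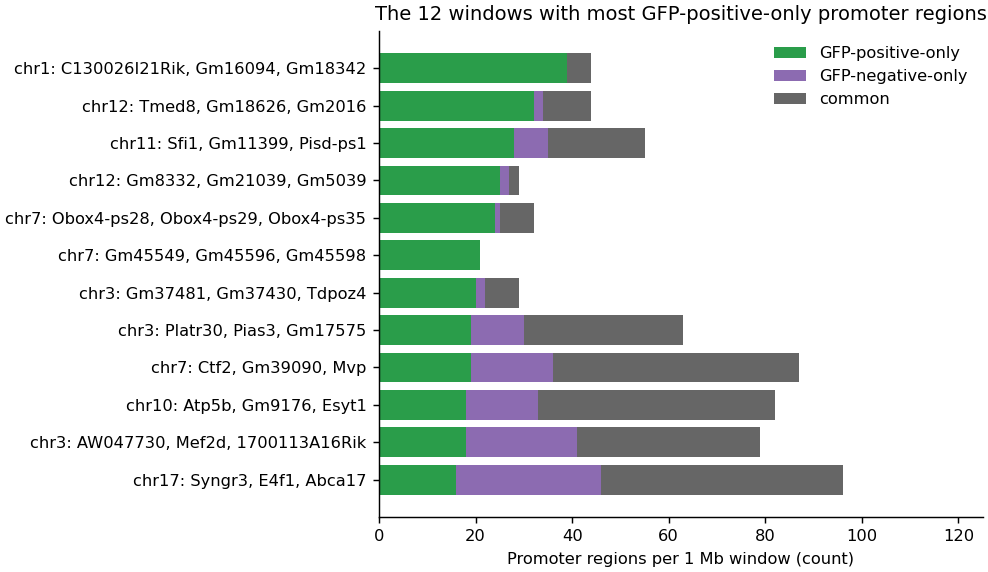
Promoter regions of each class (horizontal axis, count) in the 12 windows of 1 Mb with most 2CLC-only regions, each named by its chromosome and the genes of its strongest 2CLC-only regions. In the first window 39 of 44 regions are 2CLC-only, whereas in the last the 16 are a minority of 96.

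By chromosome, 2CLC-only regions were 11.5% of all promoter regions, from 6.40% on chromosome 18 (41 of 641, 4.75 to 8.56) to 17.5% on chromosome 12 (181 of 1034, 15.3 to 19.9). Their genes with most regions were Sfi1 with 13, Gm16026 and Myo18a with 7 each, and Dst, P4ha2, Sp110 and Tbl3 with 5 each. Myo18a, an unconventional myosin, had weak regions (median −log10 q 1.84, highest 3.40) next to 3 common and 5 GFP-negative-only regions over 24 annotated transcripts. Sfi1 had a median of 10.7 and 1 common region. Dst, a cytoskeletal linker, had a median of 1.46 beside 7 common regions.

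The study describes domains in which neighbouring genes are raised together in 2CLCs, from RNA-seq of other samples, and 86 of these on chromosomes 1 to 19 covered 2.80% of the sequence. They held 446 2CLC-only promoter regions (14.2%, 12.98 to 15.4), 124 GFP-negative-only regions (1.34%, 1.13 to 1.60) and 412 common regions (2.74%, 2.49 to 3.01). Put the other way, 2CLC-only regions were 45.4% of the 982 promoter regions inside the domains (42.3 to 48.5) and 10.2% of those outside (9.88 to 10.6). At least 1 lay in 71 of the 86 domains. Among regions of copy number 1 the shares inside were 6.22% (5.32 to 7.25), 1.05% (0.861 to 1.29) and 1.94% (1.72 to 2.18). Among regions of any copy number with a −log10 q of at least 5, they were 27.2% (22.4 to 32.8), 0.987% and 2.66%. Both conditions together were not applied. The 2CLC-only regions inside had a median −log10 q of 2.48 and lay a median of 15662 bp from a GFP-negative peak, against 1.93 and 2009 bp outside.

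Genes of the 2-cell stage held these regions most often of the 17 lists counted. Of 62 genes, 31 (50%, 37.9 to 62.1) had a 2CLC-only region in their promoter window, against 5.8% of all genes. Among 52 promoter regions at the 62 genes, 44 were 2CLC-only (84.6%, 72.5 to 91.99), 8 were common and 0 were GFP-negative-only. The strongest were at Sp110, a nuclear body protein (34.5, shared with Gm16094), Olfr376 (13.4), Gm21761 (7.87, copy number 338.5) and Usp17ld (7.09). Their median −log10 q was 2.65. All 5 Usp17l genes of the list, Usp17la to Usp17le, had 1 or 2 regions with a highest −log10 q from 2.72 to 7.09. Tcstv1 had 2.66 and Tcstv3 5.78, in the family whose products act on telomeres. Tdpoz1, Tdpoz3 and Tdpoz4 had 1.69, 2.46 and 3.29, and the oocyte-type homeobox genes Obox5, Obox6 and Obox8 had 3.46, 3.67 and 1.41. Gm4340, Trim43c, Tmem92, Arg2 and Ddit4l had 2.95, 3.46, 2.64, 2.12 and 1.44.

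Other 2-cell genes had none in the promoter window. Zscan4a to Zscan4f, which mark 2CLCs, had no promoter region of any class, nor had Zfp352, and Duxf3, Nelfa, Cwc15, Zfp750, Spz1, Zfpm2 and Gm8994 each had a common region and no 2CLC-only one. Much of the 2-cell share lay in duplicated sequence and in weak peaks. Only 13 of the 44 regions had a copy number of 1 and 7 had a −log10 q of at least 5. With copy number 1 required, 10 of the 62 genes had a 2CLC-only region, against 4.57% of all genes. With a −log10 q of at least 5 required, 6 had, against 0.549% of all genes.

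**Figure D5:**
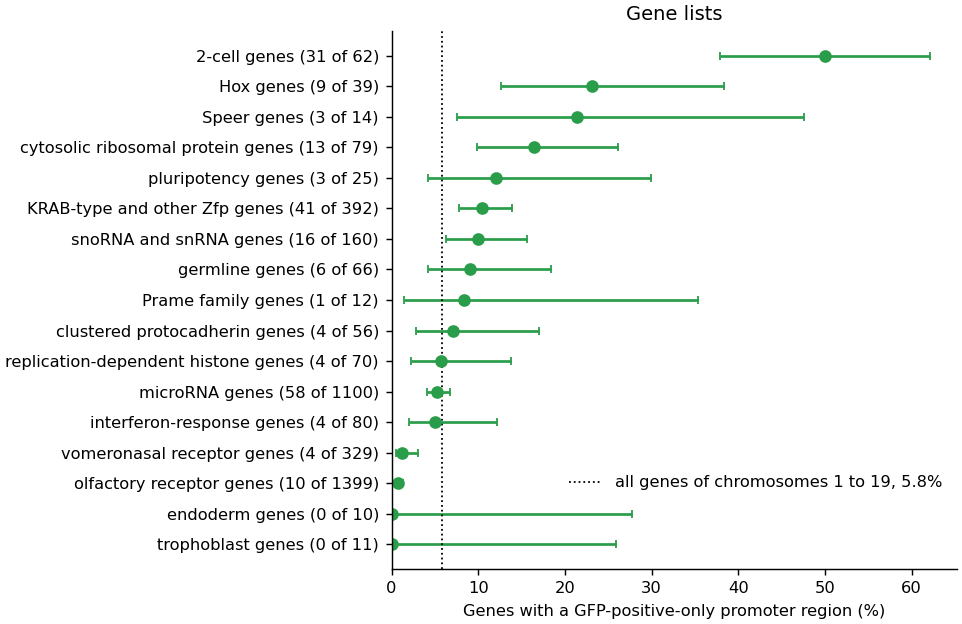
Share of the genes of each list with a 2CLC-only promoter region (horizontal axis, percent, with Wilson 95% intervals), with the share of all genes of chromosomes 1 to 19 as a dotted line at 5.8%. The 2-cell list stands at 50%, and the olfactory and vomeronasal receptor lists lie below the line. Few receptor genes had any promoter region, and by region the receptor shares were 20.8% (10 of 48) and 57.1% (4 of 7), against 11.5% of all promoter regions.

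Pluripotency genes were bound in both states for the most part. Of 25, 3 had a 2CLC-only region (12%, 4.17 to 29.96), while 20 had a common and 14 a GFP-negative-only region. The regions were weak, at Nanog (1.75, 2266 bp upstream), Stat3 (1.64) and Dppa4 itself (1.46, 2010 bp upstream, 58.9% soft-masked). By region, 3 of 54 at pluripotency genes were 2CLC-only (5.56%, 1.91 to 15.1), next to 11.5% of all promoter regions. Among germline genes 6 of 66 had one (9.09%, 4.23 to 18.45), near the 8.81% of protein-coding genes. By region 6 of 49 were 2CLC-only (12.2%, 5.735 to 24.24), near the 11.5% of all promoter regions. All 6 regions had a copy number of 1, as had 76.6% of all 2CLC-only promoter regions. The genes included Piwil1 (4.45), an argonaute of the piRNA pathway, Tex101 (3.54), Sohlh1 (2.53) and Sycp3 (2.39), a component of the meiotic chromosome axis. None of 11 trophoblast and none of 10 endoderm genes had one, with Wilson upper limits of 25.9% and 27.8%. By region it was 0 of 19 and 0 of 11, with upper limits of 16.8% and 25.9%. These intervals include the 5.8% of all genes and the 11.5% of all promoter regions, so the lists are too short to show a lack.

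Zinc finger genes named Zfp had 2CLC-only regions at 41 of 392 genes (10.5%, 7.80 to 13.9), but 309 had a common region, and 51 of their 497 promoter regions were 2CLC-only (10.3%, 7.89 to 13.2), near the 11.5% of all promoter regions. The strongest belonged to the cluster on chromosome 4, with Zfp981 at 19.4 (173 bp from a GFP-negative peak), Zfp988 at 11.6, Zfp993 at 9.15 and Zfp980 at 5.27. Hox genes, which pattern the body axis, had 9 of 39 (23.1%, 12.7 to 38.3), led by Hoxd12 (5.81), Hoxc9 (4.49), Hoxd3 (2.80) and Hoxd8 (2.77), all with a copy number of 1. The regions at Hoxd12 and Hoxd8 lay 577 and 601 bp from a GFP-negative peak, those at Hoxc9 and Hoxd3 3749 and 6245 bp. Cytosolic ribosomal protein genes had 13 of 79 (16.5%, 9.88 to 26.1), against 8.81% of protein-coding genes, led by Rps4l (5.195, annotated as a pseudogene), Rpl37 (4.78), Rplp2 (4.09) and Rpl23 (3.54). Rpl37 and Rplp2 lay 146 and 265 bp from a GFP-negative peak, Rpl23 1107 bp and Rps4l 49052 bp. The Rplp2 region had a copy number of 17.5, was 77.4% soft-masked and is also the Snora52 region named below. By region the Hox genes had 10 of 48 and the ribosomal protein genes 14 of 107. The ribosomal share by region (13.1%, 7.96 to 20.8) included the background share, and that of the Hox genes (20.8%, 11.7 to 34.3) lay just above it at its lower end.

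Few receptor genes had one. Olfactory receptors had 10 of 1399 (0.715%, 0.389 to 1.31) and vomeronasal receptors 4 of 329 (1.22%, 0.474 to 3.08), below the 5.8% of all genes, but few of these genes had any promoter region (48 and 6). By region the shares were 10 of 48 (20.8%, 11.7 to 34.3) and 4 of 7 (57.1%, 25.05 to 84.2), above the 11.5% of all promoter regions. After Olfr376 came Olfr1257 (8.09), Olfr1277 (5.195) and Olfr1315-ps1 (4.31), and Vmn1r88 (2.95), Vmn2r11 (2.66), Vmn1r196 (1.93) and Vmn1r200 (1.87) were the vomeronasal ones. Speer genes, a rodent testis family, had 3 of 14 (21.4%, 7.57 to 47.6), the only class of region there, with Speer4a at 6.60, Speer4cos at 2.01 and Speer4e at 1.70. This interval lies above the 5.8% of all genes but includes the 8.81% of protein-coding genes. By region it was 3 of 3 (43.85 to 100), against 11.5% of all promoter regions. Their copy numbers were 17, 4 and 7, in the order named. The remaining lists had intervals that included the background share or lay just above it. They were microRNA genes (58 of 1100, led by Mir7024 at 9.24, Mir5103 at 7.88, Mir7-2 at 6.54 and Mir7215 at 4.31), snoRNA and snRNA genes (16 of 160, 6.25 to 15.6, led by Snord37 at 15.6, Snora52 at 4.09, Snord16a at 3.40 and Snord12 at 2.30), clustered protocadherins (4 of 56, led by Pcdha11 at 6.11), replication-dependent histones (4 of 70, led by Hist2h3b at 2.09), interferon-response genes (4 of 80, led by Sp110 and Sp140) and the Prame family (1 of 12, Pramef6 at 1.46). All 4 histone regions lay within 1 kb of a GFP-negative peak, from 292 bp at Hist2h3b to 885 bp at Hist1h2an.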

How the data were processed

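DPPA4 CUT&RUN peaks were analysed from 2 lists that the authors deposited, 1 for GFP-negative and 1 for GFP-positive cells, each pooling the 2 replicates of its group. Per the submitters' processing notes, the tools were STAR 2.7.10, Picard 2.26.0, SAMtools 1.14, bedtools 2.30.0 and MACS2 2.2.6, on mm10. By the study's methods a read with several equally good positions was kept at 1 of them, duplicates were removed and blacklisted regions were taken out. Whether IgG served as the control in peak calling is not given in the sources used here, and the IgG libraries were not used. The deposited fold enrichment is a ratio at the summit over the background of the peak caller, and the deposited −log10 q-value is the authors' adjusted significance. Reads kept per library are unknown, so no depth could be weighed.

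Peaks on chromosomes 1 to 19 that shared at least 1 bp were merged, and a region was placed by its midpoint relative to GENCODE vM21 transcript starts. The strongest summit of a region gave its values. Copy number was the median count, on both strands of the genome, of the 31-base words in the 200 bp around the summit, and 10 or more was called multi-copy. Soft-masking was read from the lower-case letters of the reference sequence, and repeat classes were not analysed here. Motifs and shared words were searched in the 300 bases around the summit. Some shared sequences are not reported here. Gaps run from edge to edge, with 1 bp for adjacent intervals. Shares carry Wilson 95% intervals, which cover counting error only.

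Regions named are the 10 with the highest −log10 q, the 10 highest of copy number 1 whose nearest transcript is annotated as protein-coding, with no GFP-negative peak within 5 kb, the genes with most regions (from 5 upward), up to 4 genes per gene list and up to 4 per sequence group. For the 2-cell list and for the motif matches further genes were named after their values were seen. The members and lists were chosen with earlier results of these data known. The study's list of domain genes was held only in part, so no gene was counted or named from it, and the domain coordinates were used instead. Scripts were tested on simulated data and run with Python 3.11.15, numpy 2.4.6, pandas 2.3.3, statsmodels 0.14.6, numba 0.67.0 and matplotlib 3.10.9. The alternatives tried were the summit in place of the midpoint, a window from 1 kb upstream, protein-coding starts alone, a −log10 q of at least 5, the 10000 strongest peaks of each list, a GFP-negative peak within 1 kb counted as overlap, a cover of 50% required for overlap, and copy number 1 alone.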

Additional observations from a re-analysis of the deposited data

Results flagged for a closer look

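Chromosome X lay outside the comparisons above, which use chromosomes 1 to 19. It held 52 GFP-positive-only promoter regions of 522 promoter regions (9.96%, Wilson 95% interval 7.68 to 12.8), with a median −log10 q of 2.52 and a highest of 14.6, led by Cldn34c1, Gm9670 and Mid1, and 7 of the 52 were in multi-copy sequence. Chromosome Y held 3 of 5. The result drew attention because it is signal in data that no comparison here used.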

How the results depend on the processing

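No paired analysis was possible because both replicates of a group went into 1 deposited list, and for the same reason no replicate could be left out. The number of 2CLC-only promoter regions (3151) became 1702 with the window from 1 kb upstream, 1333 with protein-coding starts alone, 279 with a −log10 q of at least 5 and 1192 with the 10000 strongest peaks of each list. In the order narrow window, protein-coding starts, −log10 q of at least 5, GFP-negative peak within 1 kb counted as overlap, 50% cover, 10000 strongest and copy number 1, their share of promoter regions (11.5%) became 8.08, 7.44, 1.84, 7.89, 14.9, 17.01 and 9.48%. In the same order the multi-copy share (9.87%) became 7.64, 6.98, 18.3, 11.8, 8.29, 5.29 and, by construction, 0%. Soft-masked bases (32.2%) became 24.0, 29.2, 44.9, 34.2, 27.7, 15.9 and 24.0%. The share of 2-cell genes with such a region (50%) became 9.68% with a −log10 q of at least 5, 6.45% with the 10000 strongest peaks and 16.1% with copy number 1, and lay between 43.5% and 53.2% otherwise. The share of all genes was 0.549% with a −log10 q of at least 5 and 4.57% with copy number 1. With the 10000 strongest peaks it was not computed, so the 6.45% (4 of 62, 2.54 to 15.45) has no background share beside it. Using the summit moved none of these 5 values beyond its interval or, for the number, by over 1.5 times. Where the construction does not show it, the cause was not tested. The q and fold values come from 1 pooled library set per state, so a region absent from the GFP-negative list may be bound below its threshold, and the reads behind each list are unknown.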
